A study of Mus musculus with 34 samples.

Results

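The genes described here were 42 regulators of the cell cycle, chosen for their function. They comprised 8 cyclins, 4 cyclin-dependent kinases (CDKs), 7 CDK inhibitors, the 3 pocket proteins, 6 E2F factors and Myc, the replication clamp Pcna with the 6 Mcm helicase genes, and Mki67 with 5 mitotic or CDK-activating genes. All 42 were found among the 21738 genes of the mouse annotation (GRCm39). A called ATAC-seq peak counted for a gene when its summit lay in the gene body, up to 50 kb upstream or up to 5 kb downstream. By that rule the regulators held 6584 of the 1930325 peaks on chromosomes 1 to 19, X and Y in 34 lists, and 114 of 35043 regions merged from lists of equal length.

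The assay inserts sequencing adapters into open DNA, and each list came from mouse HFSCs, the stem cells of the hair follicle. In vivo, cells were sorted from skin in late catagen (CatVII, regression of the follicle) or full anagen (AnaVI, hair growth). The CatVII groups were Rxra cKO (Rxra fl/fl with the Sox9-creER driver and a heterozygous R26-YFP reporter, n = 3), Rxra WT (n = 4) and wild type (n = 6), and the AnaVI group was wild type (n = 2). The sorting notes of the study give Rxra WT as Rxra +/+ with the same driver and reporter, whereas its general methods also allow controls without Cre, and the labels name no alleles. Per those notes, wild-type HFSCs were gated as CD34high Itga6+, and the cells of both Rxra genotypes as YFP+ Itga6+ without CD34. The stored names of CatVII Rxra WT 2 to 4 carry the tag of CatVII wild type (P37) and go on with its numbering (NonPhago 4 to 6 after NonPhago 1 to 3), whereas WT 1 and the 3 cKO libraries carry P42. Whether WT 2 to 4 came from the reporter line or the wild-type sort cannot be told apart here, and every value given for CatVII Rxra WT carries that doubt. The age of the mice was not in the labels used here. Cultured HFSCs were passaged lines on inactivated fibroblast feeders, in which Sox9-creER was induced and YFP+ cells were sorted. Rxra cKO lines (Rxra fl/fl with Sox9-creER and R26-YFP) received apoptotic corpses (n = 3), a mixture of retinoic acid with lysophosphatidylcholine and arachidonic acid (labelled AA, LPC and RA, below AA LPC RA, n = 2) or medium (n = 2). Rxra WT lines (Rxra +/+ with the same driver and reporter) received corpses made with the phospholipase inhibitor bromoenol lactone (BEL, n = 4), untreated corpses (n = 4), AA LPC RA (n = 2) or medium (n = 2). Sox9-creER acts in the follicle's outer root sheath, so other skin cells of the cKO mice keep Rxra.

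Passage through the cycle is controlled at a few gates. D-type cyclins with Cdk4 or Cdk6, and then E-type cyclins with Cdk2, phosphorylate the pocket proteins and free E2F factors, which switch on genes for DNA replication. INK4 inhibitors act on Cdk4 and Cdk6, whereas CIP/KIP inhibitors act on further cyclin-CDK complexes. HFSCs of the bulge are quiescent for most of the hair cycle and divide briefly when a new hair is made, whereas HFSC lines divide continuously in culture. The question asked here was how the called peaks at these genes differed between the in vivo states and culture.

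The lists hold no read counts. In each library, genes were therefore ordered by the most significant peak within 1 kb of a transcription start, and the first 4644 genes, as many as the shortest of 30 lists allowed, were scored from 100 (first) down to 0 (not in the list). Regions were scored in the same way over the first 8223 peaks. The score ranks a site against other sites of its own library, so fewer cells with an open site and less opening per cell cannot be told apart. Groups were compared with limma over all promoters or regions with Benjamini-Hochberg adjustment and a threshold of 0.05. The main contrast set the mean of the 4 in vivo groups against the mean of 5 culture groups, with the medium libraries left out. Every in vivo library was prepared apart from the culture libraries, so batch, passage and feeders cannot be told apart from culture itself.

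The lists held 8311 to 109886 peaks in vivo, 12989 to 129876 in treated cultures and only 4144 to 5740 in medium. Over all called peaks, the promoters of Itga6 and Foxc1 had a peak in 15 of 15 in vivo and 15 of 15 treated culture libraries, and Krt5 in 11 and 15. Cd34 had one in 8 in vivo libraries and in 0 of 15 cultures. In lists of equal length the HFSC markers (12 genes) had 0 to 4 promoters per in vivo library and 0 to 2 per culture, fibroblast markers (8) 0 to 1 in each, immune markers (8) 0 in vivo and 0 to 1 in culture, melanocyte markers (6) 1 to 2 in each, and endothelial markers (5) 0 in each. Of the markers of other cell types, Ptprc, Cd3e, Lum, Sox10 and Tyr had no promoter peak in any library, but others did. Over all called peaks, Pdgfra had one in 9 in vivo and 15 culture libraries, Col1a1 and Cd68 each in 7 and 14. For Csf1r it was 1 and 14, for Pecam1 0 and 14, for Mitf 13 and 15 and for Dct 12 and 7. Over all called peaks, the promoter was called in more in vivo than culture libraries for 1 of 12 HFSC markers and in fewer for 9, for 4 and 3 of 8 fibroblast markers, 1 and 3 of 8 immune markers, 2 and 1 of 6 melanocyte markers and 1 and 3 of 5 endothelial markers, with as many in both for the rest. The part of other cell types in the results was not tested. The Rxra promoter was called in 3 of 3 cKO and 4 of 4 WT libraries of CatVII, which does not check the deletion, since a promoter peak says nothing about the floxed part of the gene. The titles number the CatVII Rxra libraries by mouse (m1 to m4 in WT, m1 to m3 in cKO), but the stored names give m2 to both cKO 2 (NonPhago) and cKO 3 (Phago), so these may be 2 sorts of 1 mouse. Both tags, Phago and NonPhago, reuse the same stored numbers among the wild-type CatVII lists and among cultures, so p-values measure the spread between these samples, which may not all be separate animals or cultures.

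Peaks at the cell cycle regulators made up 0.322% ± 0.046 of a list in CatVII Rxra cKO (SD, n = 3), 0.356% ± 0.025 in CatVII Rxra WT (n = 4), 0.448% ± 0.076 in CatVII wild type (n = 6) and 0.354% ± 0.017 in AnaVI (n = 2). In culture the share was 0.300% ± 0.012 with corpses and 0.364% ± 0.008 with AA LPC RA in Rxra cKO cells. It was 0.361% ± 0.021 with BEL corpses, 0.344% ± 0.028 with corpses and 0.376% ± 0.036 with AA LPC RA in Rxra WT cells. CatVII wild type, with the highest mean, had lists of 8311 to 52110 peaks, and cKO corpses, with the lowest, lists of 77784 to 129876.

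Promoters of 3 regulators were in all 30 lists: Cdkn2d, which encodes the INK4 inhibitor p19, the E2F factor E2f3, and Ccna2, the cyclin of S phase and early mitosis. Another 3 were in none (Ccnd1, Rbl1 and E2f2) and 2 in a single list (Ccnd2 and Cdkn1c), so 37 could be tested. Mcm3 joined the first 3 in all 15 in vivo lists, and 9 promoters were in all 15 culture lists. The absence of Ccnd1 was a matter of rank, since over all called peaks its promoter had a peak in 4 in vivo and 13 culture libraries, Rbl1 in 8 and 12, and E2f2 in 4 and 8. The median summit lay within 200 bp of a start for 37 of the 42 genes.

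**Figure D1:**
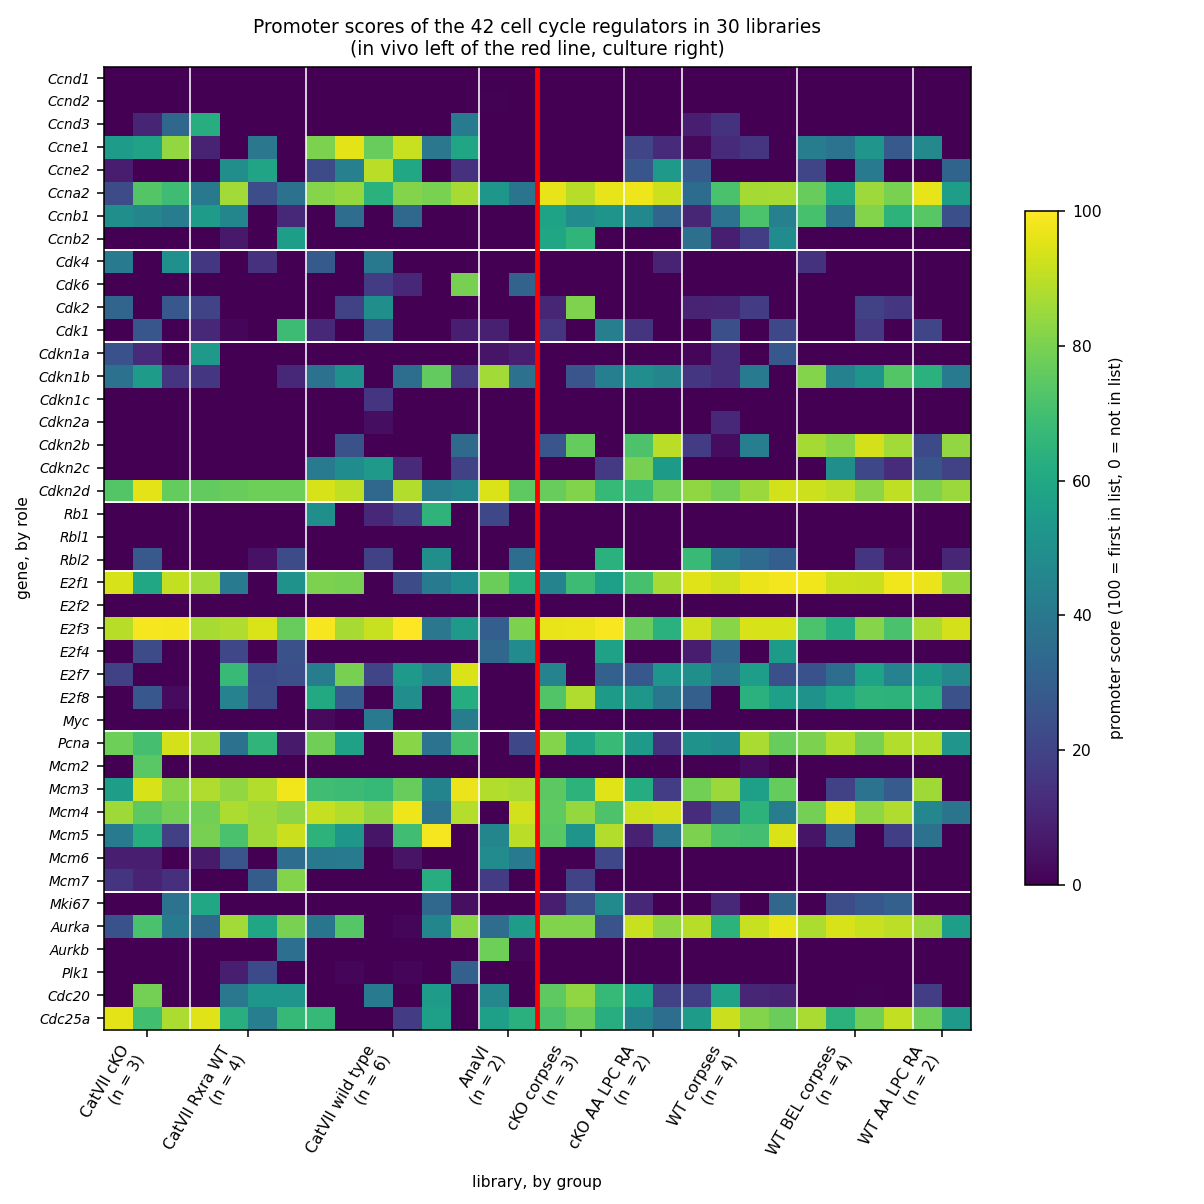
Promoter score (colour, 0 to 100) of the 42 regulators (rows, ordered from cyclins to mitotic genes) in 30 libraries (columns), with in vivo groups left of the red line and treated cultures right of it. Cdkn2d, E2f3 and Ccna2 are scored in every column, Cdkn2b is scored in 2 of 15 in vivo and 13 of 15 culture libraries, and Ccnd1, Rbl1 and E2f2 are blank throughout.

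Between in vivo and culture, 3 of the 37 tested promoters (8.11%) were higher in vivo and 7 (18.9%) were lower. Over all 8985 promoters tested, 11.2% were higher and 12.8% were lower. The median difference was -0.41 points for the regulators and 1.09 points over all promoters. Higher were Ccne1, Mcm3 and Mcm6, which act at the start of S phase. Lower were the inhibitors Cdkn2b and Cdkn2c, the E2F genes E2f8 and E2f1 (the last reversed to 9.46 when peaks were ordered by fold enrichment), the cyclins Ccna2 and Ccnb1, and the mitotic kinase Aurka. Ccna2, Ccnb1 and Aurka carry the cell from S phase through mitosis. In longer lists of the CatVII Rxra and corpse libraries alone, the promoter calls of Ccne1, Cdkn2b and E2f8 held and the other 7 did not. There Ccna2 differed by -13.50 (adjusted p = 0.0867), Ccnb1 by -5.70 (adjusted p = 0.485), Aurka by -8.17 (adjusted p = 0.289), E2f1 by -7.54 (adjusted p = 0.424), Cdkn2c by -3.66 (adjusted p = 0.77), Mcm3 by 3.20 (adjusted p = 0.547) and Mcm6 by 7.71 (adjusted p = 0.254).

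**Figure D2:**
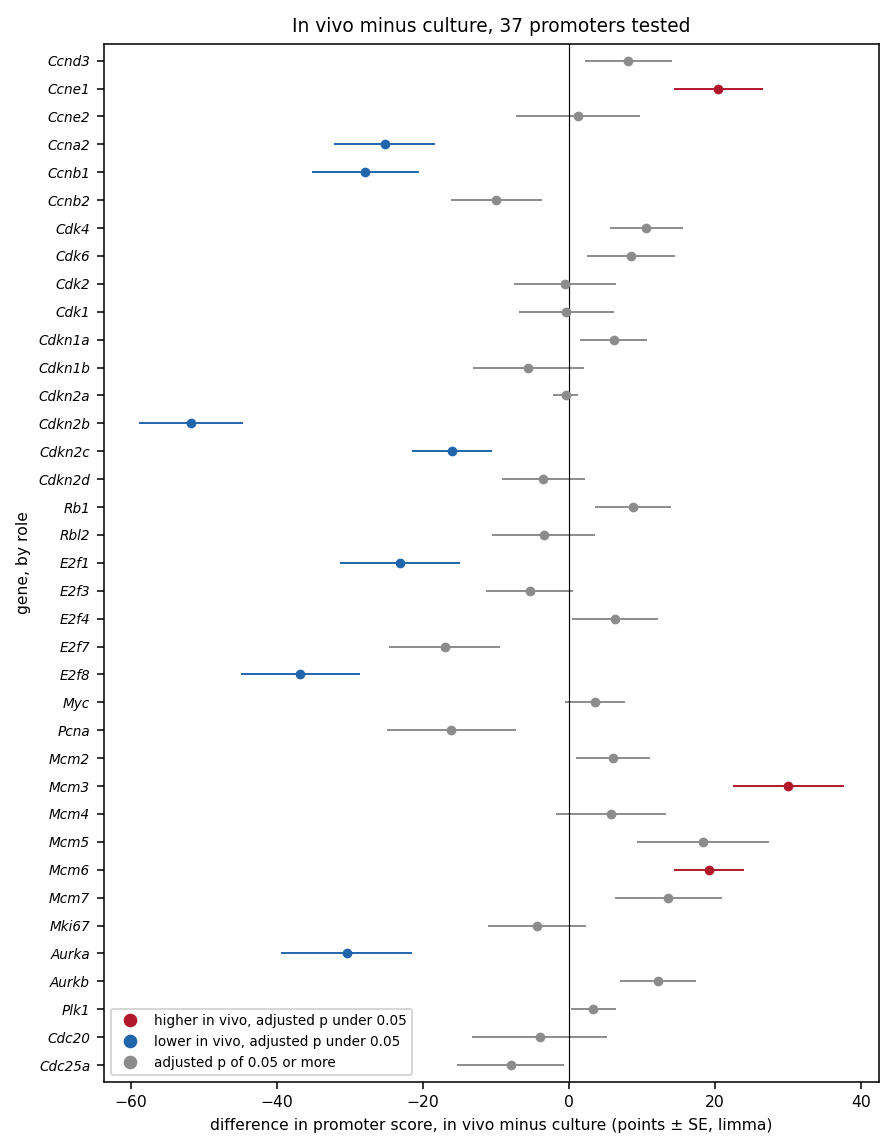
Difference in promoter score between in vivo and culture (points, bars are SE from limma) for the 37 promoters tested. Red marks the 3 that were higher in vivo, blue the 7 that were lower, and grey those that did not pass; E2f1 turned to a higher value in vivo when peaks were ordered by fold enrichment.

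Of the 37 promoters, that of the INK4 gene Cdkn2b had the largest difference. Cdkn2a and Cdkn2b lie side by side on chromosome 4 and encode p16, the p53 activator p19Arf, and p15. The Cdkn2b promoter scored above 0 in 2 of 15 in vivo libraries (24.8 and 34.5, both CatVII wild type) and in 13 of 15 cultures, with a median of 72.2 and a highest value of 93.6. It was 51.80 points lower in vivo (SE 7.10, adjusted p = 8.62e-06). Over all called peaks the promoter had a peak in 12 in vivo and 15 culture libraries, so the difference was one of rank as well as presence. The Cdkn2a promoter, scored in 1 library of each state, did not pass (-0.41, SE 1.71, adjusted p = 0.877), and its peaks over whole lists were in 6 in vivo and 14 culture libraries.

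A region between the pair separated the states entirely. It lay at chr4:89220256-89221155 (GRCm39), 7.7 kb upstream of Cdkn2a and 8.7 kb past the start of Cdkn2b, outside any protein-coding gene. It scored 0 in all 15 in vivo lists and above 0 in 11 of 15 cultures (median 42.1, highest 92.8), a difference of -43.49 points (SE 6.12, adjusted p = 4.68e-06). In the complete lists a peak was called there in 0 of 15 in vivo libraries and in 15 of 15 cultures, with 9.56-fold to 31.9-fold enrichment over the local background (median 19.6). None of the 4 medium lists had it, but those lists are the shortest. The 4 cultures scored 0 were those with BEL corpses, in which it stood at positions 8705 to 10939, just past the first 8223 peaks. The 201 bases around its summit are shown because no in vivo library had a peak over them. Capitals mark a RUNX motif (TGTGGT) and a SOX motif (ACAANG, here on the other strand).

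Cdkn2a-Cdkn2b, chr4:89220460-89220660, plus strand: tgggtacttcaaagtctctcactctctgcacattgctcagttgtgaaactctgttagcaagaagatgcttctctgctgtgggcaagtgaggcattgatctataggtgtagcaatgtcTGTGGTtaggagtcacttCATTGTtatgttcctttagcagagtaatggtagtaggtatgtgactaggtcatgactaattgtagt

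Of the other INK4 genes, the Cdkn2c promoter (p18) was 16.04 points lower in vivo (SE 5.45, adjusted p = 0.0339). Its scores were 0 in 10 of 15 in vivo libraries, against a median of 12.7 in culture, and the groups overlapped. The region over that promoter was also lower (-16.43, SE 5.78), but turned to a higher value in vivo (18.75, adjusted p = 0.206) in longer lists of the CatVII Rxra and corpse libraries. Cdkn2d was in every list, with a median score of 76.7 in vivo (lowest 33.6) and 82.8 in culture (lowest 66.5). The difference was -3.49 (SE 5.72, adjusted p = 0.683).

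Cdk6, a kinase held in check by these inhibitors, carried the region with the smallest p of the 87 member regions tested. It lay 40 kb upstream at chr5:3350669-3351795, outside any protein-coding gene, and scored 0 in all 15 in vivo libraries, against 37.8 to 92.1 in culture (median 78.6). The groups did not overlap, and the difference was -69.74 points (SE 4.01, adjusted p = 1.44e-12). Over complete lists a peak was called in 5 in vivo libraries and in 15 of 15 cultures. Its enrichment in vivo was 4.80-fold to 6.01-fold in 4 libraries and 19.2-fold in CatVII Rxra WT 2, and in culture 10.6-fold to 22.5-fold. CatVII Rxra WT 2 was thus within the culture range by enrichment here, although it had no peak at the region between Cdkn2a and Cdkn2b. By position no in vivo library reached that range (best 13703, against 653 to 5113 in culture). The sequence is shown for its pair of AP-1 motifs (TGANTCA), which with a RUNX motif on the other strand are in capitals.

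Cdk6 40 kb upstream, chr5:3351185-3351385, plus strand: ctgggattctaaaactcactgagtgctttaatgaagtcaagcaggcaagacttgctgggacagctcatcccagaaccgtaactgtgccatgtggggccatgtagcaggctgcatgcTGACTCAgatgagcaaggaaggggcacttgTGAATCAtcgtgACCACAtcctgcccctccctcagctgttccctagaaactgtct

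A second Cdk6 region, 186 kb past the start and overlapping an untranslated exon (chr5:3579471-3580098), ran the other way. It scored above 0 in 8 of 15 in vivo libraries, with 90.2 and 51.9 in AnaVI, and in 0 of 15 cultures (difference 29.84, SE 7.55, adjusted p = 0.00338), although complete lists had a peak there in 12 in vivo and 14 culture libraries. The Cdk6 promoter was scored in 4 in vivo libraries and no culture, and did not pass (8.49, SE 6.02, adjusted p = 0.324). Near Cdk4, a region 6.5 kb past the start, at the promoter of its neighbour Tspan31, was higher in vivo (26.23, SE 9.18, adjusted p = 0.0309), but -4.07 when positions were taken over complete lists. The Cdk4 promoter, which it shares with Marchf9, differed by 10.62 (SE 4.98, adjusted p = 0.126).

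Of the D-type cyclins, the partners of Cdk4 and Cdk6, none had a promoter that passed. Ccnd1 instead had a region 31 kb upstream (chr7:144524507-144525900), scored in 14 of 15 in vivo libraries and 5 of 15 cultures. Its scores were 80.3, 30.9 and 59.3 in CatVII Rxra cKO, 63.3 to 96.8 in CatVII wild type, and 0 and 17.96 in AnaVI. In culture it scored 63.6, 50.4, 50.6 and 4.8 with BEL corpses, 70.4 in 1 WT AA LPC RA library and 0 in the other 10. The difference was 34.70 (SE 7.21, adjusted p = 5.37e-04). Complete lists had a peak there in 14 in vivo and 15 culture libraries, with a median enrichment of 9.94-fold in vivo and 10.8-fold in culture, so the site was called in both and ranked lower among culture peaks. No searched motif was found in the 201 bases around its summit.

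Ccnd1 31 kb upstream, chr7:144525001-144525201, plus strand: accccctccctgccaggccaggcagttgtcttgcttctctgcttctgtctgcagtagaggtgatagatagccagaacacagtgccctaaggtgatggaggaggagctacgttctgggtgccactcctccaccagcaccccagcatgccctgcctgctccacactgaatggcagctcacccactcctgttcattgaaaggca

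No promoter of a CIP/KIP inhibitor passed. Cdkn1a (p21, a p53 target) was scored in 5 in vivo libraries, with 25.4, 12.2 and 0 in CatVII Rxra cKO, and in 3 cultures, all WT with corpses (1.7, 13.1 and 27.4). Cdkn1b (p27) was scored in 12 in vivo and 13 culture libraries, with medians of 36.0 and 43.3. Both had an upstream region that was higher in vivo. That of Cdkn1a, 12 kb upstream in the non-coding gene Trp53cor1 (chr17:29297228-29298431), was scored in 8 of 15 in vivo and 2 of 15 culture libraries (29.18, SE 5.24, adjusted p = 1.11e-04), but differed by -3.04 when positions were taken over complete lists. That of Cdkn1b, 5.7 kb upstream (chr6:134891349-134891999), was scored in 4 in vivo libraries (47.8, 60.6, 27.0 and 21.9) and no culture (13.46, SE 4.45, adjusted p = 0.0224), and was called over complete lists in 10 in vivo and 12 culture libraries. Their summits are shown for a TAATTA motif, bound by LIM-homeodomain factors such as Lhx2, at Cdkn1a and 2 SOX motifs at Cdkn1b, all in capitals.

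Cdkn1a 12 kb upstream, chr17:29297875-29298075, plus strand: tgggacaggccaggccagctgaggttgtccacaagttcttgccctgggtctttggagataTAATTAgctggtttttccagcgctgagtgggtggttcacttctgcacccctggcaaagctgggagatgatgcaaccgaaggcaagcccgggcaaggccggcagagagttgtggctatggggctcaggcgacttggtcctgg

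Cdkn1b 5.7 kb upstream, chr6:134891531-134891731, plus strand: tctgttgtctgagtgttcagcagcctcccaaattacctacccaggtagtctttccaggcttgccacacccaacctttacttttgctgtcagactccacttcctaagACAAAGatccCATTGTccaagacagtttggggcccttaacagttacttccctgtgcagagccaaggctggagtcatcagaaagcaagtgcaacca

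Among the pocket proteins, which hold E2F factors inactive, Rb1 had a pair of regions that were higher in vivo and absent from the first 8223 peaks of every culture. Over complete lists both were called in most cultures, so these were differences of rank. The first lay 88 kb past the start at the promoter of Lpar6, a receptor gene inside Rb1 (chr14:73475009-73476521). It was scored in 9 of 15 in vivo libraries, with 61.2, 83.4 and 40.5 in CatVII Rxra cKO (30.999, SE 6.52, adjusted p = 6.15e-04), and called over complete lists in 14 of 15 in vivo and 14 of 15 culture libraries. The second lay 45 kb upstream in Itm2b and was scored in 9 in vivo libraries, 5 of them CatVII wild type (20.61, SE 7.58, adjusted p = 0.04), and called over complete lists in 15 and 15. The Rb1 promoter was scored in 5 in vivo libraries, at up to 65.0, and in no culture (8.75, SE 5.24, adjusted p = 0.236), and was called over complete lists in 15 and 14. Rbl2 did not pass (-3.46, SE 7.04, adjusted p = 0.741).

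E2f2, an activating E2F, had no scored promoter but a region 8.3 kb past its start, over exons of the gene (chr4:135907392-135909092). Its score was above 0 in 12 of 15 in vivo libraries, with 40.8, 39.6 and 54.9 in CatVII Rxra cKO and 52.8, 24.6, 39.3 and 37.8 in CatVII Rxra WT, and 0 in all 15 cultures. The difference was 32.84 (SE 5.36, adjusted p = 3.43e-05). Complete lists had a peak in 13 in vivo libraries, at 4.90-fold to 16.2-fold enrichment and a median position of 4990, and in 13 cultures, at 3.82-fold to 7.25-fold and a median position of 58979. The site was thus called in both states, and lay far down the culture lists.

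E2f1, the activator that leads entry into S phase, was scored in 13 of 15 in vivo and 15 of 15 culture libraries, with medians of 59.6 and 92.3. The difference of -23.12 (SE 8.2, adjusted p = 0.0423) became 9.46 when peaks were ordered by fold enrichment, and lost its call in 17 of 30 fits that each left out 1 library. E2f8, a repressor of E2F targets, scored 0 in 7 of 15 in vivo libraries and in 1 culture, with medians of 2.9 and 56.3 (-36.80, SE 8.12, adjusted p = 0.00164). E2f7, its partner, missed the threshold (-17.04, SE 7.65, adjusted p = 0.11), as did E2f3 (-5.38, SE 5.92, adjusted p = 0.541) and E2f4 (6.34, SE 5.91, adjusted p = 0.462). A region 8.4 kb upstream of E2f4, at the promoter of Matcap1, was scored in 12 in vivo and 4 culture libraries (33.43, SE 6.98, adjusted p = 5.65e-04), and the 4 were the BEL cultures. A region 44 kb upstream of E2f1, at the promoter of Zfp341, was lower in vivo (-25.94, SE 6.22, adjusted p = 0.00211), but 14.54 in longer lists of the CatVII Rxra and corpse libraries. Myc was scored at its promoter in 3 CatVII wild type libraries (2.5, 41.6 and 42.3) and no culture, and did not pass (3.60, SE 4.11, adjusted p = 0.559).

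**Figure D3:**
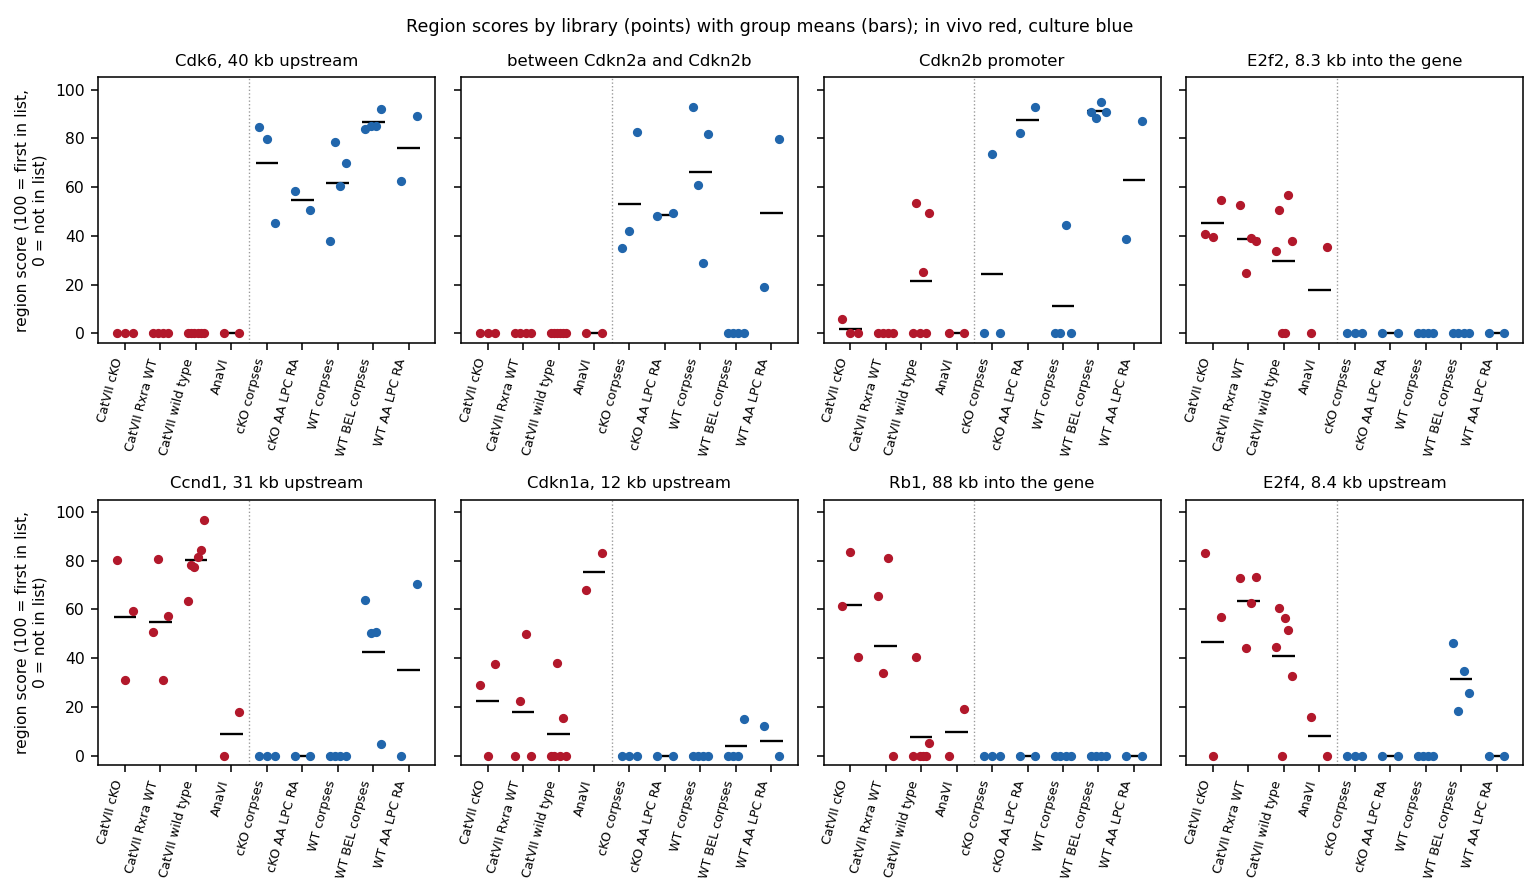
Region score (0 to 100) in each library (points) with group means (bars) for 8 regions of the regulators, with in vivo groups in red left of the dotted line and cultures in blue. The regions upstream of Cdk6 and between Cdkn2a and Cdkn2b are at 0 in all 15 in vivo libraries, and the region in E2f2 is at 0 in all 15 cultures. The Cdkn1a region turned to a slightly lower value in vivo over complete lists.

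The promoters of E-, A- and B-type cyclins moved in different directions. Ccne1, which drives entry into S phase, scored 54.8, 57.7 and 84.0 in CatVII Rxra cKO, 9.9, 0, 39.6 and 0 in CatVII Rxra WT, 39.8 to 96.0 in CatVII wild type and 0 in both AnaVI libraries, against 0 to 52.0 in culture. It was 20.48 points higher in vivo (SE 6.09, adjusted p = 0.0154), although the region over this start, shared with 1600014C10Rik, fell to -3.51 over complete lists. Ccne2 did not pass (1.24, SE 8.54, adjusted p = 0.927). Ccna2 had a median of 68.9 in vivo and 86.5 in culture (-25.26, SE 6.96, adjusted p = 0.00936). Ccnb1, the mitotic cyclin, was scored in 8 of 15 in vivo libraries and in all 15 cultures, with medians of 11.6 and 48.4 (-27.93, SE 7.34, adjusted p = 0.00672). Ccnb2 (-9.95, adjusted p = 0.261) and Cdk1 (-0.37, adjusted p = 0.973) did not pass, nor did Cdk2 (-0.60, adjusted p = 0.958).

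Of the replication genes, Mcm3 and Mcm6 passed by promoter score. Mcm3, a subunit of the helicase, scored 45.3 to 97.8 in vivo and 0 to 95.1 in culture, with medians of 83.7 and 61.9 (30.07, SE 7.61, adjusted p = 0.00503). Mcm6 was scored in 10 in vivo libraries and in 1 culture (19.17, SE 4.84, adjusted p = 0.00498). Mcm5 missed the threshold (18.36, SE 9.07, adjusted p = 0.147), as did Mcm7 (13.61, SE 7.36, adjusted p = 0.188), Mcm2 (6.07, SE 5.10, adjusted p = 0.411), Mcm4 (5.76, SE 7.53, adjusted p = 0.61) and Pcna (-16.10, SE 8.80, adjusted p = 0.193). Scored as regions, the promoters of Mcm3 (29.34), Mcm6 (28.72) and Mcm7 (23.58) and a site 3.4 kb upstream of Mcm2 at the promoter of Tpra1 (19.24) were higher in vivo. Over complete lists the values for Mcm6 (-4.84), Mcm7 (-9.14) and the Mcm2 site (-2.60) were below 0.

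Of the mitotic genes, Aurka was lower in vivo (-30.45, SE 8.96, adjusted p = 0.0144), with medians of 45.9 in vivo and 87.6 in culture. Its promoter is shared with Cstf1, and the lists do not tell them apart. Aurkb was scored in 3 in vivo libraries and no culture (12.20, SE 5.26, adjusted p = 0.0965), and a region 33 kb upstream of it passed (23.64, SE 6.58, adjusted p = 0.00719), with 25.1 and 85.7 in AnaVI. Mki67, the proliferation marker, differed by -4.33 (adjusted p = 0.667), Plk1 by 3.36 (adjusted p = 0.45), Cdc20 by -4.03 (adjusted p = 0.772) and Cdc25a, a CDK-activating phosphatase, by -8.00 (adjusted p = 0.456).

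In total, 15 of the 87 member regions tested (17.2%) were higher in vivo and 6 (6.9%) lower, against 15.3% higher and 17.0% lower over all 23143 regions tested. The median difference was 5.01 points for the member regions and 1.65 over all. Counted by gene, 14 had a higher and 6 a lower region, but with positions taken over complete lists, which were longer in culture, 18 had a higher and 40 a lower region, so the balance of directions depended on that scaling. How many of all genes had such a region was not counted, so these gene counts have no background to be read against. Of the 31 called promoters and regions, 27 kept their call with the shortest peak of a library (58 to 150 bp in vivo, 60 to 219 bp in treated cultures, the mean fragment length in the peak caller) as a covariate, and 27 without the libraries under 20000 peaks, both chosen after seeing the data. A call was lost in some fit that left out 1 library for 9 of them: the promoters of Ccne1, Cdkn2c and E2f1, the Cdkn2c promoter region, and the regions near Cdk4, Cdkn1b, Mcm2, Rb1 (45 kb upstream) and Aurkb. For Ccne1 this was WT AA LPC RA 3, without which the difference was 15.78.

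A further list of 50 cell cycle genes gave 41 tested promoters, of which 5 were higher in vivo and 4 lower, against the 11.2% and 12.8% over all promoters. Top2a (42.50), Cks2 (39.10), Cdc45 (38.15) and Rbbp4 (31.49) were among the higher, and Cdt1 (-33.37) and Tfdp2 (-31.42) among the lower.

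Lists of the 7 CatVII Rxra libraries and the 7 corpse cultures, of both genotypes, were long enough to score 41317 peaks, and gave 289 regions at the regulators, of which 233 were tested. In these, 59 (25.3%) were higher in CatVII and 39 (16.7%) lower, against 20.3% and 23.3% over all 76945 regions tested. Of the higher regions, 18 lay within 1 kb of a start of the gene (30.5%), against 1 of the lower (2.56%) and 47 of all tested (20.2%). These shares were not counted for the regions of all genes, so the split cannot be called particular to the regulators. Of the 39 lower regions, 26 were in none of the 7 CatVII lists and 12 of these were in all 7 culture lists, against 64.2% and 32.6% of the 17931 lower regions of all genes, so the regulators were near the background. The 12 lay near Cdk1, Cdk4, Cdk6 (19 kb upstream and 151 kb past the start), the site between Cdkn2a and Cdkn2b, Cdkn2b (42 kb upstream), Rbl1, E2f3, E2f4, E2f8, Pcna and Mcm4. The reverse, all 7 CatVII and no culture list, held for 2 regions, that in E2f2 and one 26 kb upstream of E2f3, of the 59 higher regions, against 15.6% of the 15621 higher regions of all genes.

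The calls in these longer lists kept to 1 direction at some genes and went both ways at others. How often genes at large keep to 1 direction was not counted, and genes with a single call are left out. At Rb1 5 regions were higher in CatVII and 0 lower, and at E2f2 and at Mcm2 4 and 0. At Cdkn1a, Cdkn1b, Ccne2 and Aurkb it was 3 and 0 each, and at Myc, Cdkn1c and Mcm7 2 and 0 each. At Cdk1, E2f8 and Aurka 0 were higher and 2 lower each. At Cdkn2a and Cdkn2b 0 were higher, and 4 and 5 were lower in windows that overlap. The region between them differed by -91.98 points (SE 2.87, adjusted p = 4.9e-11). Both directions occurred at Ccnb1, Ccnd1, Ccnd3, Ccne1, Cdk4, Cdk6, Rbl1, E2f3, E2f4, Pcna, Mcm4, Mcm6 and Cdc25a. At Cdk6 3 regions were higher, with the promoter among them (39.51, SE 5.46, adjusted p = 6.77e-05). Another 5 were lower there, among them the region 40 kb upstream (-84.84, SE 9.25, adjusted p = 7.76e-06). By promoter score, 5 of 41 regulators were higher (Ccne1, Cdk4, Rb1, Mcm4 and Aurkb) and 2 lower (Cdkn2b, -40.31, and E2f8, -22.42), against 11.9% in each direction over all 12592 promoters.

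**Figure D4:**
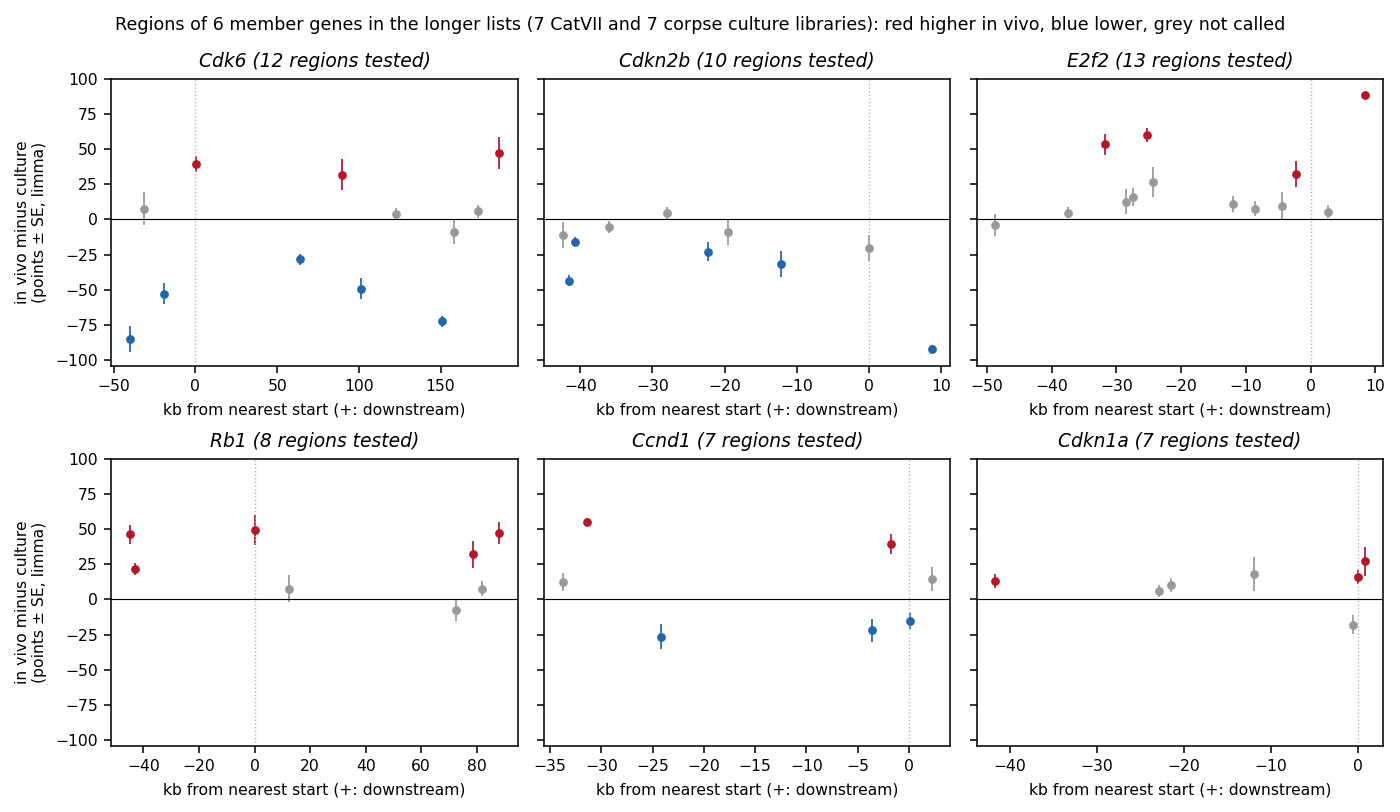
Difference in region score between 7 CatVII Rxra libraries and 7 corpse cultures (points, bars are SE from limma) against the distance of the summit from the nearest start of the gene (kb). All called regions of Rb1, E2f2 and Cdkn1a are above 0 (red), all called regions of Cdkn2b are below 0 (blue), and Cdk6 and Ccnd1 have both.

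Motifs of cell cycle promoters were counted in the 300 bases from 250 before to 50 after each start, on both strands. An E2F motif (TTTNNCGC) was in 18 of the 42 regulators (42.9%) and in 6.30% of all 21738 promoters, an NF-Y box (CCAAT) in 25 (59.5%) and in 39.9%, a CHR element (TTTGAA) in 12 (28.6%) and 17.1%, an SP/KLF box (GGGCGG, which can overlap TTTNNCGC on the same bases) in 33 (78.6%) and 42.5%, and an E-box (CACGTG) in 4 (9.52%) and 7.82%. Of the 3 promoters higher in vivo, Mcm3 and Mcm6 held an E2F motif, and of the 7 lower, E2f1 and E2f8 did. The 150 bases upstream of the start are shown for Mcm3, which was higher in vivo, for E2f1 and Ccnb1, which were lower (E2f1 reversed when peaks were ordered by fold enrichment), and for Cdkn2d, which was in every list. They are printed in the direction of transcription, with each of these motifs in capitals where it lies within the bases shown.

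Mcm3, chr1:20890537-20890686, minus strand: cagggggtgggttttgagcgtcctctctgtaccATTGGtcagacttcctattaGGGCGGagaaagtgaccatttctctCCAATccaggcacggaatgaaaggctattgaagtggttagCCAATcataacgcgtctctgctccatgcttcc
E2f1, chr2:154411813-154411962, minus strand: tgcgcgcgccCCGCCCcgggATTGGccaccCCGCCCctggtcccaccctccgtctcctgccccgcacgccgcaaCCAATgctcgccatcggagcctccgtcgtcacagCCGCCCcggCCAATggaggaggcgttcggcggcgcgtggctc
Ccnb1, chr13:100923117-100923266, minus strand: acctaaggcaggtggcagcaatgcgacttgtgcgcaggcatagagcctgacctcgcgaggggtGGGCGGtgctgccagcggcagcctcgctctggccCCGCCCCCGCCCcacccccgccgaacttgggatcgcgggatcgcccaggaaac
Cdkn2d, chr9:21202728-21202877, minus strand: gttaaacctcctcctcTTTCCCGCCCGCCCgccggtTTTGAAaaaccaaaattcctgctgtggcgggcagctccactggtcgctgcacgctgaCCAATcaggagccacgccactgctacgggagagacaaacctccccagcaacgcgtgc

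In the 201 bases around region summits, an AP-1 motif (TGANTCA) was in 26.4% of all regions, in 50.9% of the 3937 regions lower in vivo and in 17.2% of the 3542 higher. At the regulators it was in 10 of 114 regions (8.77%), in 1 of the 6 that were lower in vivo (the Cdk6 region 40 kb upstream) and in 0 of the 15 that were higher. RUNX motifs were in 2 of those 6, at Cdk6 and between Cdkn2a and Cdkn2b, and in 16.3% of all regions. A match describes the letters only and shows no bound factor.

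Hair cycle stage was compared in wild-type HFSCs. Between CatVII and AnaVI, 2 of 37 promoters were higher and 3 lower, against 6.93% and 9.14% over all promoters, and 9 of 87 regions were higher and 5 lower, against 5.47% and 9.79% over all regions. Ccne1 scored 80.1, 96.0, 76.9, 91.8, 39.8 and 58.9 in CatVII and 0 and 0 in AnaVI (73.92, SE 12.77, adjusted p = 3.12e-04). The repressor E2f7 scored 21.1 to 94.2 in CatVII and 0 in both AnaVI libraries (55.99, SE 16.05, adjusted p = 0.018). Mcm6 (-30.37, SE 10.16), E2f4 (-40.60, SE 12.40) and Aurkb (-39.61, SE 11.04) were lower in CatVII, and E2f4 and Aurkb scored 0 in all 6 CatVII wild type libraries. In AnaVI 1 and 2, Mcm6 scored 48.3 and 41.5, E2f4 33.1 and 48.1, and Aurkb 78.0 and 1.2. The Aurkb call thus rested on 1 library, without which the difference was -1.21 (adjusted p = 1.0). Of 8 fits that each left out 1 library, the call was lost in 6 for Mcm6, in 2 for E2f4 and in 2 for E2f7 (for both genes, without AnaVI 1 and without AnaVI 2). Over complete lists the Ccne1 and E2f7 promoter regions each had a peak in 6 of 6 CatVII wild type and 1 of 2 AnaVI libraries. The Mcm6 promoter region had one in 4 and 2, and that of Aurkb in 2 and 2.

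Regions near the inhibitor genes Cdkn1a and Cdkn2c differed in score between these stages. The Cdkn1a region 12 kb upstream scored 0, 0, 38.0, 0, 15.4 and 0 in CatVII, against 68.0 and 83.0 in AnaVI (-66.58, SE 11.004, adjusted p = 9.12e-05). A region 9.3 kb upstream of Cdkn2c, at the promoter of Faf1, scored 72.0 to 97.2 in CatVII and 0 in both AnaVI libraries (78.78, SE 16.34, adjusted p = 0.00123). Over complete lists this site had a peak in 6 of 6 CatVII wild type and 2 of 2 AnaVI libraries. The Cdkn1a region had one in 4 and 2, so both sites were called in both stages. The Ccnd1 region 31 kb upstream was also higher in CatVII (71.19, SE 15.12, adjusted p = 0.00156). The libraries differed in the length of their shortest peak, 126 to 150 bp in CatVII wild type and 58 and 89 bp in AnaVI. With that length as a covariate 7 of the 19 calls remained, Ccne1 among them (79.17, adjusted p = 0.00298), and without AnaVI 1 there were 5 calls. The part of fragment length in the other calls cannot be told apart from hair cycle stage here.

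Few regulators were called between Rxra genotypes. In CatVII, Rxra cKO was compared with Rxra WT, and 1 of 37 promoters was higher and 0 lower, against 0.846% in each direction over all promoters. The 1 was Ccne1, with 54.8, 57.7 and 84.0 in cKO, against 9.9, 0, 39.6 and 0 in WT (53.12, SE 11.95, adjusted p = 0.0259). The groups did not overlap. Of 87 regions, 2 were higher and 0 lower, against 1.11% and 0.894%: the Ccne1 promoter (44.87, SE 11.83, adjusted p = 0.0483) and the Mcm2 promoter, with 11.1, 80.7 and 35.0 in cKO and 0 in all 4 WT libraries (42.27, SE 8.72, adjusted p = 0.0122). Over complete lists both regions had a peak in 3 of 3 cKO and 4 of 4 WT libraries, so these were differences of rank. At an unadjusted p under 0.05, 1 promoter and 2 regions were lower, and with peaks ordered by fold enrichment there was 1 call in all, higher. Against WT 1 alone, the only WT library with the P42 tag of the cKO libraries, the Ccne1 promoter differed by 55.61, the Ccne1 region by 40.81 and the Mcm2 region by 42.27, close to the values against all 4. With 1 WT library none of these passed, and the part of the tag was not tested. The calls that this fit made at other promoters or regions of the regulators were all lower in cKO. The Mcm2 call held in each fit that left out 1 library. The Ccne1 promoter call was lost without cKO 3 (43.88, adjusted p = 0.14), WT 2 (49.00, adjusted p = 0.0668) or WT 4 (49.00, adjusted p = 0.0792).

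In cultures with corpses, Rxra cKO cells were compared with Rxra WT cells. Of 37 promoters 0 were called by limma, 4 had an unadjusted p under 0.05, and 0 were called with peaks ordered by fold enrichment, against 0.757% higher and 0.534% lower over all promoters. Of 87 regions 1 was higher and 1 lower, against 4.06% and 2.82% over all regions. A region 5.5 kb past the start of Pcna, at the promoter of Tmem230, scored 0, 0 and 2.9 in cKO and 81.3, 41.4, 66.9 and 35.5 in WT (-55.32, SE 13.43, adjusted p = 0.0101). The Mcm4 promoter, shared with Prkdc, scored 65.8, 82.5 and 71.5 in cKO and 0, 1.7, 67.8 and 25.8 in WT (49.43, SE 15.16, adjusted p = 0.05 after rounding, just under the threshold). Its call was lost in 6 of the 7 fits that left out 1 library. Over complete lists the Pcna and Mcm4 regions each had a peak in 3 of 3 cKO and 4 of 4 WT libraries with corpses. Both were thus differences of rank. The effect of Rxra deletion in CatVII was compared with that under corpses by the limma interaction, with 0 of 37 promoters and 0 of 87 regions called, 4 and 11 at an unadjusted p under 0.05, and 55 promoters and 663 regions called over all.

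BEL, which blocks the release of lysophosphatidylcholine and arachidonic acid from dying cells, was tested in Rxra WT cultures. With BEL-treated corpses, 3 of 37 promoters were higher and 3 lower than with untreated corpses, against 5.83% and 5.45% over all promoters, and 11 of 87 regions were higher and 2 lower, against 7.06% and 8.03%. Higher were the inhibitors Cdkn2b, with 86.5, 82.4, 93.6 and 86.2 with BEL and 17.7, 3.3, 42.8 and 0 without (71.25, SE 12.90, adjusted p = 8e-04), and Cdkn1b (44.95, SE 13.88, adjusted p = 0.0377), and Mcm4 (49.44, SE 13.69, adjusted p = 0.0212). Lower were Rbl2 (-39.16, SE 12.78, adjusted p = 0.0485), Mcm3 (-52.52, SE 13.83, adjusted p = 0.0153) and Mcm5, with 5.7, 32.5, 0.1 and 18.6 with BEL and 80.1, 71.2, 70.0 and 94.7 without (-64.79, SE 16.48, adjusted p = 0.0122). The helicase subunits thus differed in both directions.

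The region between Cdkn2a and Cdkn2b scored 0 in all 4 BEL libraries and 92.8, 61.1, 29.0 and 81.7 with untreated corpses (-66.17, SE 11.12, adjusted p = 2.01e-04), while the Cdkn2b promoter region scored 90.9, 88.5, 95.1 and 90.8 with BEL and 0, 0, 44.4 and 0 without (80.24, SE 14.54, adjusted p = 4.47e-04). The site 44 kb upstream of E2f1 was higher as well (73.37, SE 11.30, adjusted p = 7.47e-05). Each BEL library had a shortest peak of 144 or 145 bp, and each untreated corpse library one of 60 to 104 bp, so fragment length and BEL cannot be told apart. With that length as a covariate 4 of 19 calls held: the regions at the Cdkn1b and Ccne1 promoters, the E2f1 site and the region between Cdkn2a and Cdkn2b (-74.98, adjusted p = 0.00202). Ordered by fold enrichment, 4 calls were made. The Rbl2 call was lost in 8 of 8 fits that left out 1 library (adjusted p 0.0542 to 0.185), that of Cdkn1b in 6 and that of Mcm4 in 4.

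**Figure D5:**
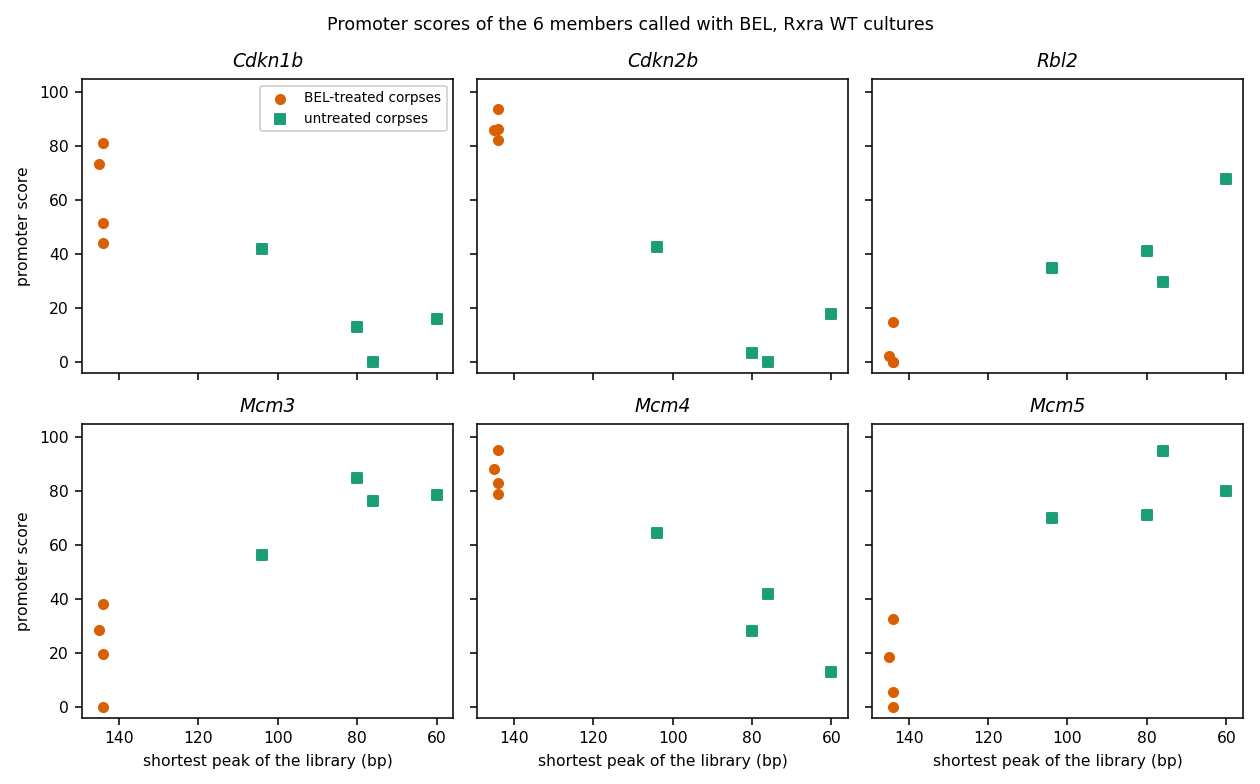
Promoter score (0 to 100) of the 6 regulators called between BEL-treated corpses (orange circles, n = 4) and untreated corpses (green squares, n = 4) in Rxra WT cultures, against the shortest peak of each library (bp, the axis runs from long to short). BEL libraries all sit at 144 or 145 bp and untreated ones at 60 to 104 bp. The 6 were chosen by this same contrast, so the separation of scores in the panels adds no support to it. With the shortest peak as a covariate 0 promoters of the regulators were called.

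Corpses were compared with medium in Rxra WT cultures by a fit over all 34 libraries, in which the medium lists allowed only 1079 promoters and 4111 peaks. Of 18 regulators tested, 1 promoter was higher with corpses and 0 lower (2 at an unadjusted p under 0.05), against 3.57% and 4.45% over all promoters. E2f1 scored 79.4, 69.5, 88.04 and 92.4 with corpses and 0 and 0 in medium (82.34, SE 17.81, adjusted p = 0.00395), and 69.1 and 0 in Rxra cKO medium. Of 65 regions, 4 were higher and 1 lower, against 8.80% and 7.18%. The 4 were the promoter regions of Cdkn2d (62.36), E2f1 (88.26) and E2f3 (76.31) and a site 34 kb upstream of E2f1 at the promoter of Pxmp4 (92.48). A region 2.6 kb upstream of Cdkn2d was in 0 of 4 corpse lists and in both medium lists (-87.51, SE 2.08). With the shortest peak (195 and 207 bp in Rxra WT medium) as a covariate, 2 of these 6 calls remained.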

How the data were processed

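Peaks of open chromatin were measured by ATAC-seq in 34 libraries of mouse HFSCs in 11 groups taken from the labels. Per the labels, alignment by the authors was to mm39 (BWA 0.7.18), SAMtools (1.17 and 1.9) and deepTools 2.0.0 were used, and MACS3 3.0.0 called the peaks of each library on its own. Each deposited list gives the position, the fold enrichment at the summit (a ratio to local background), the −log10 p and the −log10 q of each peak, with no read counts, so the count model of the study could not be run and depth is known only as the number of peaks (4144 to 129876). The deposited score column (a rescaled −log10 q) was not used. Libraries can differ in depth and fragment length, which moves the number and the order of peaks.

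Peaks were ordered by the deposited −log10 p, and each library was reduced to the same number of promoters (4644) or peaks (8223), 10681 and 41317 in the longer lists and 1079 and 4111 with medium. Summits were assigned with GENCODE M39 (GRCm39), a promoter being 1 kb around any start. Regions were merged from overlapping peaks. Scores ran from 100 to 0. Features present in at least 2 libraries were tested with limma 3.58.1 (R 4.3.3) over all groups at once, with Benjamini-Hochberg adjustment over all features. The method was first tested on simulated promoter data for in vivo against culture, with 200 differences planted among 8985 promoters. It recovered 28% of the small and 83% of the large differences. Of its calls, 9.76% (12) were false, which is above the share that the threshold aims at. Regions and the other contrasts were not part of that check. Python 3.11.15 and pandas 2.3.3 were used. All 42 regulators are accounted for. Values are given for those called in any contrast, those in all or no list and up to 12 others by role. The regulators and lists were chosen with earlier results of these data known. Alternatives were shorter lists, complete lists, ordering by fold enrichment, array weights, log2 scores, no filter, Fisher's exact test, other windows, a replicate block, and leaving out each library.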

Additional observations from a re-analysis of the deposited data

Results flagged for a closer look

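Libraries were flagged by limits meant for values without a floor. A lone score above 0 is thus flagged at any height, and no chance rate is given. Of 156 groups of 4 to 10 libraries checked, 16 (10.3%) had a library that stood apart from the others of its group. WT corpses 3 accounted for 5 of these, with 3.7 at the region 46.8 kb upstream of Ccnb1, 8.8 at the Ccne1 promoter region, 6.3 at the region 34 kb upstream of Ccne2, 43.1 at the Cdkn1b promoter region and 44.4 at the Cdkn2b promoter region, each against 0 in the other 3 libraries. It also had the longest shortest peak of its group, 104 bp against 60 to 80 bp, and the part of that length was not tested.

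Among BEL cultures, BEL 3 scored 14.9 at the Rbl2 promoter (others 0 to 2.4), BEL 4 scored 92.1 at the region 40 kb upstream of Cdk6 (others 84.0 to 85.3) and 14.8 at the region 12 kb upstream of Cdkn1a (others 0), and BEL 1 scored 33.3 at the region 5.5 kb past the start of Pcna and 11.5 at the Mcm6 promoter region (others 0 at both). In CatVII wild type, library 3, with the shortest list, scored 63.8 at the Ccna2 promoter (others 80.02 to 87.0), library 6 scored 83.2 at the region 186 kb past the start of Cdk6 (others 0 to 22.1), and library 2 scored 97.2 at the region 9.3 kb upstream of Cdkn2c (others 72.0 to 80.5) and 40.5 at the region 88 kb past the start of Rb1 (others 0 to 5.3). In CatVII Rxra WT, library 1 scored 27.0 at the region 5.7 kb upstream of Cdkn1b (others 0) and library 3 scored 50.4 at the region 45 kb upstream of Rb1 (others 0 to 5.6).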

How the results depend on the processing

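Between in vivo and culture, 10 regulators had a called promoter and 19 a called region. With lists of 50% of the length these counts were 6 and 12, by presence with Fisher's exact test 2 and 7, and with the 4 medium libraries 3 and 12. The region count was 40 over complete lists and 36 in the longer CatVII and corpse lists. Leaving out 1 library gave 8 to 10 and 17 to 22. The share of all genes with a called region was not counted in any of these settings. Values that reversed were the E2f1 promoter by fold enrichment (9.46), the regions of Mcm7 (-9.14), Mcm2 (-2.60), Ccne1 (-3.51), Mcm6 (-4.84), Cdk4 (-4.07) and Cdkn1a (-3.04) over complete lists, and those 44 kb upstream of E2f1 (14.54) and at Cdkn2c (18.75) in the longer lists. The cause was not tested.

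Between CatVII and AnaVI, the 19 calls became 8 with shorter lists, 1 with array weights, 7 with shortest peak as a covariate, 10 without libraries under 20000 peaks, and 5 to 23 without 1 library. The 5 were without AnaVI 1, where the E2f3 promoter region was -1.21, against 81.53 without AnaVI 2. For Rxra cKO in CatVII, 3 calls became 1 with shorter lists, 1 by fold enrichment, 5 with array weights and 1 to 6 without 1 library (1 without WT 2 or WT 4, 6 without WT 1). Against WT 1 alone the calls fell on other features and were all lower in cKO. With corpses, 2 calls became 0 by fold enrichment, 5 with array weights and 1 to 3 without 1 library (1 without cKO 2 or WT 1). For BEL, 19 calls became 12 with shorter lists, 4 by fold enrichment, 32 with array weights, 4 with shortest peak as a covariate and 13 to 22 without 1 library. For corpses against medium, 6 calls became 3 by fold enrichment, 2 with array weights, 2 with shortest peak as a covariate and 3 to 9 without 1 library (3 without WT medium 4).

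The replicate block gave 9 and 21 between in vivo and culture, 22 between stages, 2 for Rxra cKO in CatVII, 1 with corpses, 18 for BEL and 6 against medium. Same-numbered libraries of different groups, by the numbers in the labels, did not deviate together throughout (correlations -0.124 to 0.080), so these numbers were not taken to pair them. Stored numbers that tie Phago and NonPhago libraries within a group were neither tested nor used as a block. Short lists limit what can be ranked: a site absent from a list was not called or lay below its end.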
